A study of Homo sapiens with 9 samples.

Results

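The response to low oxygen was followed through 10 of its genes, out of 19775 genes measured, in the steroid-producing line H295R, derived from a human adrenocortical carcinoma. They are the oxygen-sensing genes VHL, HIF1A, EGLN1 and EGLN3 and the hypoxia-responsive genes ANKRD37, VEGFA, ADM, BNIP3, KDM3A and PFKFB4. They were taken by symbol from the array's probe annotation, all 10 were found, and each is represented by the probe set that was brightest over all 9 arrays. The cells had 3 h with 100 nM torcetrapib (labelled CP-529414), with 100 nM angiotensin II or with DMSO, the vehicle, and each treatment has 3 arrays. Torcetrapib inhibits the cholesteryl ester transfer protein, and angiotensin II is the peptide hormone that drives aldosterone secretion. The question put to the cells was whether inhibitors of this class act on the renin-angiotensin pathway of the adrenal. All cells are of 1 line, and the labels do not say that arrays came from separate cultures, so the spread between arrays may be technical.

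In cells with enough oxygen the prolyl hydroxylases, among them EGLN1 and EGLN3, modify the alpha subunit of the hypoxia-inducible factor (HIF), and the VHL protein then marks that subunit for degradation. When oxygen falls, the alpha subunit escapes, pairs with ARNT and binds hypoxia response elements near its target genes, EGLN1 and EGLN3 included. The control is thus mainly on the HIF1A protein, and the arrays measured RNA alone. Inherited loss of VHL is known for tumours of the adrenal medulla, the neighbour of the cortex from which this line derives.

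The 10 genes were selected on results of these same arrays, since their fitted differences between the 3 treatments were known when they were picked, so their values are given as a description and without a test of their own. All values are on the log2 scale after robust multi-array averaging, a level written ± carries the SD over 3 arrays, and a difference written ± carries the SE of a fit over all genes. Each of the 10 genes lay above the dim limit of 4.87, the 0.25 quantile of gene levels, so a filter there would remove none, and 7 lay above the median gene at 6.73. Array medians ran from 5.54 to 5.60, and the number of arrays limits the precision. The 6 measured adrenocortical markers lay between 7.12 and 11.9, all above the median gene, against 3.91 to 6.86 for 4 markers of the medulla and 3.50 to 7.72 for 6 of fibroblasts, endothelium and immune cells. Summed over the adrenocortical markers, levels ran from 55.5 to 56.0 with torcetrapib, from 55.8 to 56.5 with angiotensin II and from 55.0 to 55.9 with DMSO. Of the adrenocortical markers, STAR, the cholesterol transporter of steroid synthesis, averaged 11.92 with torcetrapib, 12.04 with angiotensin II and 11.84 with DMSO (limma adjusted p = 0.0030 for angiotensin II against DMSO and 0.0423 for torcetrapib against angiotensin II). The corticotropin receptor gene MC2R was higher with angiotensin II than with DMSO (adjusted p = 0.0203) and the steroid hydroxylase gene CYP17A1 lower with torcetrapib than with angiotensin II (adjusted p = 0.0395), both by limma. None of the 10 markers of other cells was past the threshold of limma in any comparison.

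A sign of RNA quality differed between the arrays. Control probe sets for ACTB and GAPDH lie at both ends of the transcript, and the 5′ to 3′ index is the mean log2 difference between their 5′ and 3′ signals. It was -0.28, -0.22 and -0.23 on the torcetrapib arrays, -0.62, -0.63 and -0.60 on the angiotensin II arrays, and -0.72, -0.28 and -0.50 on the DMSO arrays. DMSO replicate 2 thus lay beside the torcetrapib arrays and apart from the other DMSO arrays. An exact two-sided permutation test gave p = 0.1 for torcetrapib against either other group, the smallest p that 3 against 3 arrays allow. Within groups the index had an SD of 0.03 with torcetrapib, 0.02 with angiotensin II and 0.22 with DMSO. A fit with the index as a covariate thus rests mainly on the DMSO arrays. Such a fit cannot fully tell the index and the treatment apart.

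Promoter sequences are shown for the members that were past the threshold with angiotensin II against DMSO and have an entry. That of BNIP3 is shown too, as it had the most matches. The mean level of BNIP3 was lower with angiotensin II than in the other groups, but neither difference was past the threshold. All sequences are RefSeq windows of 300 bases on GRCh38.p14, read 5′ to 3′ along the gene. They run from 250 bases before the start site to 50 bases after it. An entry was found for 8 of the 10 members; VHL and VEGFA have none in the table. Capitals mark the core of the hypoxia response element, searched as ACGTG and GCGTG on both strands. The ANKRD37 window is chr4:185396591-185396890 on the plus strand, that of KDM3A chr2:86441121-86441420 on the plus strand, that of EGLN1 chr1:231422238-231422537 on the minus strand and that of BNIP3 chr10:131981874-131982173 on the minus strand.
ANKRD37: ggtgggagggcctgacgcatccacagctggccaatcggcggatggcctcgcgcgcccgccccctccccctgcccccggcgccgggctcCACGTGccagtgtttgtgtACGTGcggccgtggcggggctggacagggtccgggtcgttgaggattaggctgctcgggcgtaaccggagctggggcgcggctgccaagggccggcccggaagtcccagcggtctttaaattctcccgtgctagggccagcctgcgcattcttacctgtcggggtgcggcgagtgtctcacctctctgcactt
KDM3A: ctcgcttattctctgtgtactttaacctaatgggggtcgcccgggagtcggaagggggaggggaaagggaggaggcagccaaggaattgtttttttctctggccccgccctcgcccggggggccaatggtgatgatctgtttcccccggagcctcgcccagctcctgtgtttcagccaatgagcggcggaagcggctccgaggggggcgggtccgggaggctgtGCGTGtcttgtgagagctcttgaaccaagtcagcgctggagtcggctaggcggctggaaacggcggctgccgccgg
EGLN1: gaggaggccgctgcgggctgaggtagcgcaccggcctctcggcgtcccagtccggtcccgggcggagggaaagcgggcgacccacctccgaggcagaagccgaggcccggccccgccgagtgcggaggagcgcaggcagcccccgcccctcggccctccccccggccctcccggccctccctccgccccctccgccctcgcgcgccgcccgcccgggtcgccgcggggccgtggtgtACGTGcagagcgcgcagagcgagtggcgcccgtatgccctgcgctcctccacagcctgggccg
BNIP3: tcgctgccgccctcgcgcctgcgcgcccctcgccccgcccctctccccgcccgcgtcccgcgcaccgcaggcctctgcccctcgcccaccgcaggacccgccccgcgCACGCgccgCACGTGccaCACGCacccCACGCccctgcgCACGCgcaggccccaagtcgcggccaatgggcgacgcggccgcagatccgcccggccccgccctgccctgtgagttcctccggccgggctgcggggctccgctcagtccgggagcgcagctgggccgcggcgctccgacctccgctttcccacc

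The ANKRD37 window held 3 matches, of which 2 overlap in the palindrome CACGTG that reads the same on both strands. The BNIP3 window held 6, of which 2 likewise overlap in CACGTG, and those of EGLN1 and KDM3A held 1 each. KDM3A has a further window for another start site, in which the same match lies farther upstream. One match also stood in the windows of ADM and PFKFB4 and in 1 of 2 windows of HIF1A, and EGLN3 had none. Such a core is common: 48.4% of all 35116 windows of this length hold one. By gene it was found for 7 of the 8 members with a window (87.5%), for 60 of 68 other HIF pathway genes (88.2%) and for 52.4% of all 27305 genes in the table. The shorter form of the cAMP response element, TGACG, was found in 1 window each of ANKRD37, EGLN3 and HIF1A, and stands in 24.6% of all windows. Its share by gene was not computed. The full element, TGACGTCA, which contains the shorter form, stands in 1.85% of all windows and was not among these letters in any member's windows. A match is a description of the sequence and not a bound site.

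With angiotensin II the hypoxia-responsive gene ANKRD37 was 3.21-fold, the histone demethylase gene KDM3A 1.63-fold and the vascular growth factor gene VEGFA 1.44-fold of its DMSO level. EGLN1, the main HIF prolyl hydroxylase, was 1.12-fold. With torcetrapib ANKRD37 was 1.73-fold and VHL 1.54-fold of its DMSO level. By their brightest probe sets the other 8 genes stayed within a log2 difference of 0.24 of DMSO. Some dimmer probe sets of VEGFA and EGLN1 went beyond this, up to 0.58 and 0.55. In the fit over all genes 4 of the 10 members were past the threshold upwards with angiotensin II and 0 downwards, where 6.12% of all genes were past it, 3.36% higher and 2.76% lower. With torcetrapib 2 were past it upwards and 0 downwards, where 1.16% of all genes were, 0.592% higher and 0.566% lower. Between torcetrapib and angiotensin II 1 member was past it upwards and 6 downwards, where 11.3% of all genes were, 4.61% higher and 6.68% lower. The arrays of the groups did not overlap for 7 members higher and 1 lower with angiotensin II than with DMSO, where 9.26% and 8.37% of all genes did not. For torcetrapib against DMSO these were 3 higher and 2 lower (6.04% and 10.5% of all genes), and for torcetrapib against angiotensin II 1 higher and 7 lower (10.3% and 18.4%, together 28.6%). The same differences were known when the genes were picked, so nothing is read from these counts. The median difference of the members was -0.07 with torcetrapib, against -0.03 for all genes, and 0.14 with angiotensin II, against 0.01 for all genes. Both treatments were set against the same 3 DMSO arrays.

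**Figure D1:**
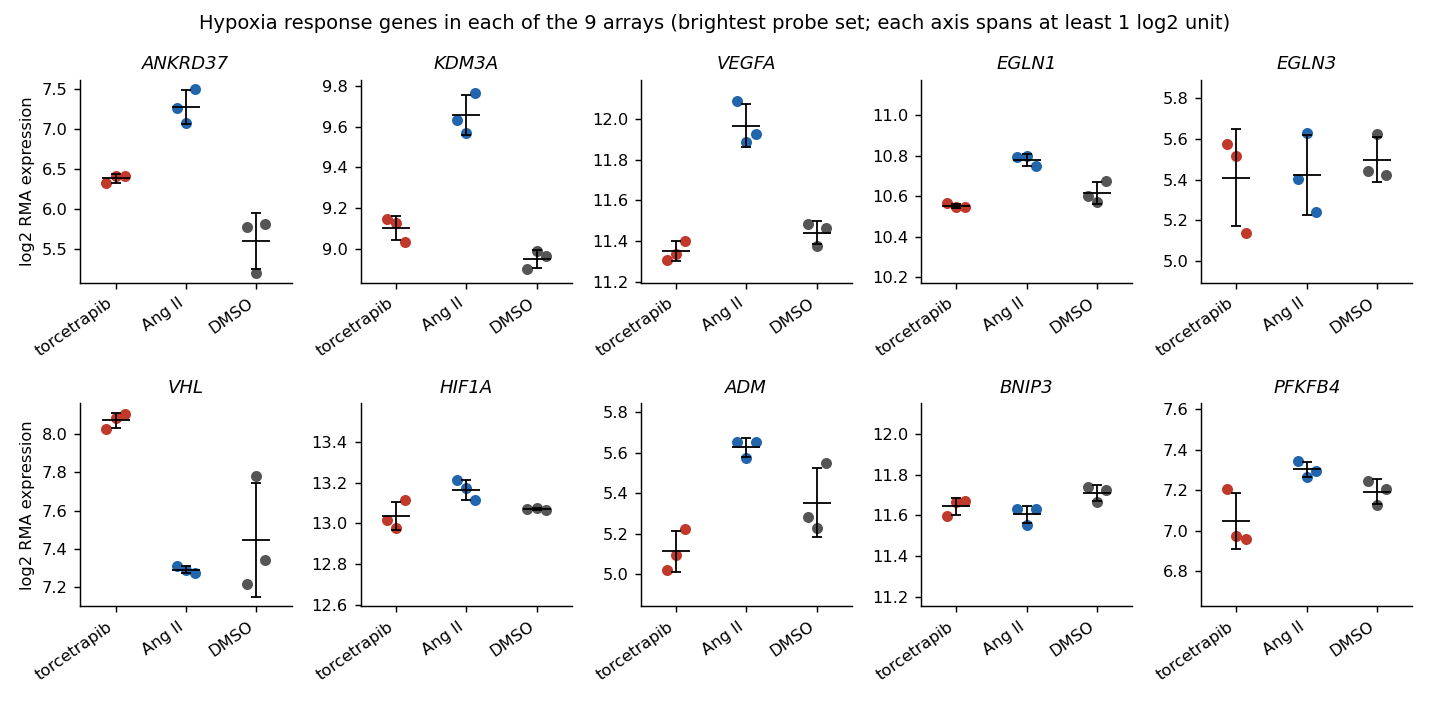
Log2 expression of the 10 genes (vertical axes, each spanning at least 1 log2 unit) in the 9 arrays, by treatment (horizontal axes; Ang II stands for angiotensin II). Points are arrays, and the black bar and whiskers are the mean and SD of 3. ANKRD37 lies highest with angiotensin II and lowest with DMSO, and VHL highest with torcetrapib, with 1 DMSO array at 7.78 between the groups.

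**Figure D2:**
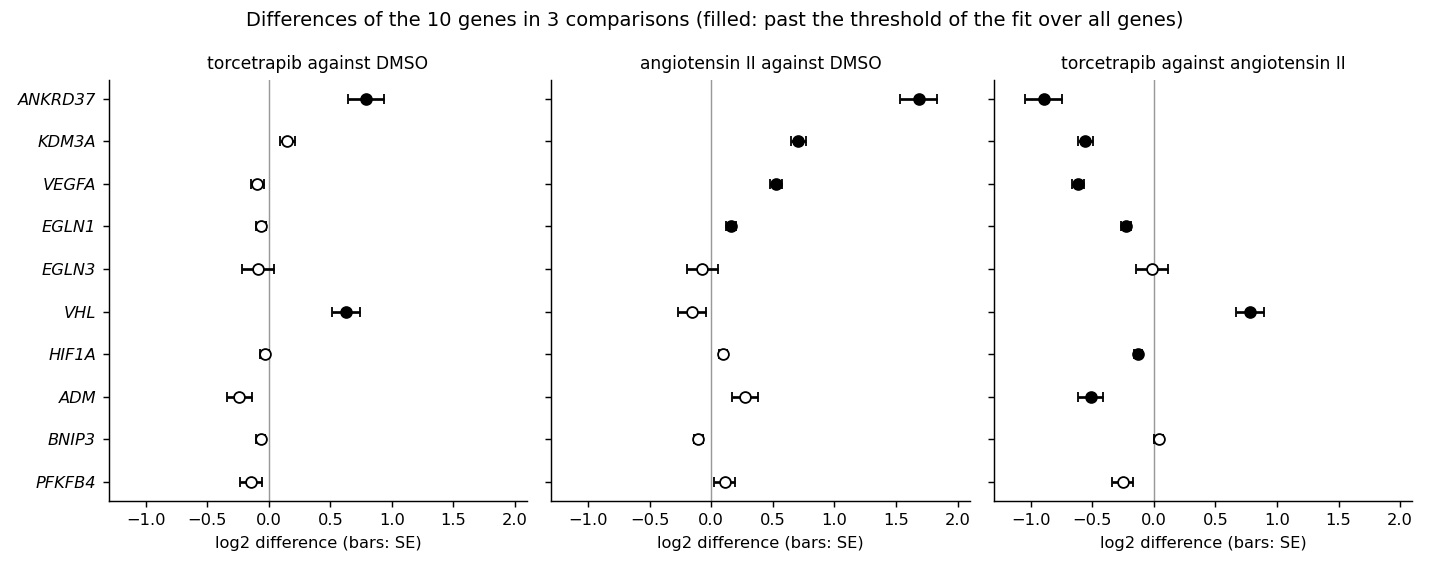
Log2 differences (horizontal axes, bars are SE) of the 10 genes in 3 comparisons, filled where the gene was past the threshold of the fit over all genes. ANKRD37, KDM3A, VEGFA and EGLN1 are filled to the right for angiotensin II against DMSO, and ANKRD37 and VHL for torcetrapib against DMSO.

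ANKRD37 encodes a small ankyrin repeat protein and is known as a HIF target. Its levels were 6.31, 6.41 and 6.41 with torcetrapib, 7.26, 7.07 and 7.49 with angiotensin II and 5.77, 5.19 and 5.81 with DMSO. The angiotensin II arrays were highest, the torcetrapib arrays came next and the DMSO arrays were lowest, and no groups overlapped. Such separation in either direction was seen in 16.5% of all genes for torcetrapib against DMSO and in 17.6% for angiotensin II against DMSO. The differences were 0.79 ± 0.15 for torcetrapib and 1.68 ± 0.15 for angiotensin II against DMSO, and -0.90 ± 0.15 between torcetrapib and angiotensin II. Against DMSO the absolute difference of ANKRD37 exceeded that of 99.74% of all genes with angiotensin II and of 99.85% with torcetrapib. ANKRD37 was picked with these differences known, so its rank is a description alone. Its lowest array was DMSO replicate 2, without which the differences were 0.59 ± 0.12 for torcetrapib and 1.48 ± 0.12 for angiotensin II. Once the index was added as a covariate they were 1.10 ± 0.18 and 1.54 ± 0.14, and torcetrapib minus angiotensin II was -0.44 ± 0.22 and no longer past the threshold. The torcetrapib difference from DMSO fell short of it without any 1 of the torcetrapib arrays. A second ANKRD37 probe set, which can bind several transcripts, was dim at 3.63 over all arrays and had differences of -0.23 ± 0.10 with torcetrapib and -0.06 ± 0.10 with angiotensin II. Averaged over both probe sets ANKRD37 had 0.28 ± 0.11 with torcetrapib, no longer past the threshold, and 0.81 ± 0.11 with angiotensin II.

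In the RefSeq annotation ANKRD37 overlaps its neighbours UFSP2 and LRP2BP, so signals of the 3 genes may not be wholly separate. UFSP2, a protease gene, had differences of 0.11 ± 0.09 with torcetrapib and -0.02 ± 0.09 with angiotensin II. LRP2BP lay at a dim 4.21 and had 0.06 ± 0.12 and 0.27 ± 0.12. Neither neighbour was past the threshold (limma adjusted p = 0.673 and 0.959 for UFSP2, 0.882 and 0.264 for LRP2BP, each for torcetrapib and then angiotensin II). Among 999 non-member genes at or above the median level that varied with an SD of at least 0.2, the patterns most like that of ANKRD37 over the 9 arrays were those of TENT5C (Pearson r = 0.987), RNF19B (0.987), ARG2 (0.986), ZFP36L2 (0.984) and ZBTB21 (0.984). TENT5C averaged 7.62 with torcetrapib, 8.48 with angiotensin II and 7.13 with DMSO. The arrays of a treatment share that treatment, so these values describe a shared order of groups.

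KDM3A encodes a histone demethylase that needs oxygen and is itself a HIF target. It lay at 9.15, 9.13 and 9.03 with torcetrapib, at 9.63, 9.57 and 9.76 with angiotensin II and at 8.90, 8.99 and 8.96 with DMSO. The angiotensin II arrays stood well apart, while the torcetrapib arrays were just above DMSO and did not overlap with it. The differences from DMSO were 0.15 ± 0.06 for torcetrapib and 0.71 ± 0.06 for angiotensin II, and torcetrapib minus angiotensin II was -0.56 ± 0.06. Its other probe set lay at 3.22 and had differences of 0.06 ± 0.06 and -0.03 ± 0.06 from DMSO. Averaged over both, angiotensin II minus DMSO was 0.34 ± 0.06 and torcetrapib minus angiotensin II -0.23 ± 0.06, both past the threshold.

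VEGFA encodes the growth factor that drives the formation of blood vessels. Its brightest probe set lay at 11.31, 11.34 and 11.40 with torcetrapib, at 12.09, 11.89 and 11.93 with angiotensin II and at 11.48, 11.38 and 11.47 with DMSO. Angiotensin II stood above both other groups, which overlapped. The differences were -0.09 ± 0.05 for torcetrapib and 0.53 ± 0.05 for angiotensin II against DMSO, and -0.62 ± 0.05 for torcetrapib against angiotensin II. The 4 VEGFA probe sets did not agree on torcetrapib. The second brightest had 0.10 ± 0.06 with torcetrapib and 0.58 ± 0.06 with angiotensin II, close to the first for angiotensin II. The 2 dimmer ones had 0.50 ± 0.18 and 0.58 ± 0.19 with torcetrapib, and 0.30 ± 0.18 and 0.18 ± 0.19 with angiotensin II. On the dimmest DMSO replicate 2 was at 9.15, inside the torcetrapib range of 9.12 to 9.34, while the other DMSO arrays were at 8.16 and 8.70. With the mean of the 4 probe sets torcetrapib minus angiotensin II was -0.13 ± 0.10 and no longer past the threshold.

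EGLN1 is the prolyl hydroxylase known as the main oxygen sensor of the pathway. It lay at 10.57, 10.55 and 10.55 with torcetrapib, at 10.79, 10.80 and 10.75 with angiotensin II and at 10.60, 10.57 and 10.68 with DMSO. Angiotensin II was highest and torcetrapib lowest, with a small step to DMSO. The differences were -0.06 ± 0.04 for torcetrapib, 0.16 ± 0.04 for angiotensin II and -0.23 ± 0.04 between torcetrapib and angiotensin II. The side of the threshold for angiotensin II against DMSO changed in 10 of 18 alternative settings, among them the fits without DMSO replicate 1 or 2, angiotensin II replicate 1 or 2 or torcetrapib replicate 1 (differences of 0.14 to 0.26 over all settings). The other 3 EGLN1 probe sets were higher than DMSO with both treatments, by 0.22 to 0.55 with torcetrapib and by 0.20 to 0.39 with angiotensin II. With the mean of its probe sets torcetrapib minus angiotensin II was 0.0026, and with the index in the model it was no longer past the threshold.

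EGLN3, the related hydroxylase that HIF induces strongly in many cells, ran from 5.14 to 5.58 with torcetrapib, from 5.24 to 5.63 with angiotensin II and from 5.42 to 5.62 with DMSO. The 3 groups overlapped fully, with differences from DMSO of -0.09 ± 0.13 and -0.07 ± 0.13. HIF1A, the alpha subunit itself, was brighter than 99.5% of all genes. It ran from 12.98 to 13.11 with torcetrapib, from 13.12 to 13.21 with angiotensin II and from 13.06 to 13.08 with DMSO. The differences were -0.03 ± 0.03 for torcetrapib, 0.10 ± 0.03 for angiotensin II and -0.13 ± 0.03 for torcetrapib against angiotensin II. The last was past the threshold, but not with the index in the model, nor without angiotensin II replicate 1 or 2 or torcetrapib replicate 1 or 2. SNAPC1, a transcription factor subunit gene next to HIF1A and not overlapping it, was past the threshold in all 3 comparisons, by 0.29 ± 0.06 for torcetrapib and 0.52 ± 0.06 for angiotensin II against DMSO and by -0.23 ± 0.06 for torcetrapib against angiotensin II (limma adjusted p = 0.0412, 5.85e-05 and 0.0316).

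VHL encodes the subunit that recognises hydroxylated HIF. Its brighter probe set, which can bind several transcripts, lay at 8.03, 8.08 and 8.11 with torcetrapib, at 7.31, 7.29 and 7.27 with angiotensin II and at 7.22, 7.78 and 7.34 with DMSO. The torcetrapib arrays lay above all others, and angiotensin II lay within the DMSO range. DMSO replicate 2, the array with the high 5′ to 3′ index, lay between the torcetrapib arrays and the other DMSO arrays. The differences were 0.63 ± 0.11 for torcetrapib and -0.15 ± 0.11 for angiotensin II against DMSO, and 0.78 ± 0.11 for torcetrapib against angiotensin II. With the index in the model they were 0.30 ± 0.11, -0.01 ± 0.08 and 0.31 ± 0.13, and none of the 3 was past the threshold. Without DMSO replicate 2 torcetrapib against DMSO was 0.79 ± 0.08. The side of the threshold for torcetrapib against DMSO changed in 10 of 18 settings, among them the fits without DMSO replicate 1 or 3 and without any 1 of the torcetrapib arrays.

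The second VHL probe set lay at 3.10 over all arrays, far below the dim limit, and had differences from DMSO of -0.01 ± 0.07 with either treatment. The neighbouring gene BRK1, an actin regulator, had differences of 0.03 ± 0.04 with torcetrapib and -0.02 ± 0.04 with angiotensin II, and IRAK2, a signalling kinase gene on the other side, -0.18 ± 0.12 and 0.07 ± 0.12. The patterns most like that of VHL over the 9 arrays were those of CENPI (Pearson r = 0.969), FAM204A (0.968), CLSTN3 (0.963), CEBPZOS (0.962) and NPEPPSP1 (0.960), out of the same 999 genes. In each of these 5 genes DMSO replicate 2 lay above its DMSO mean, as with CENPI at 7.49 against a DMSO mean of 7.17. CENPI averaged 7.62 with torcetrapib and 6.93 with angiotensin II. The part of RNA quality in the VHL difference was not tested beyond the fit with the index, which cannot fully separate it from the treatment.

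**Figure D3:**
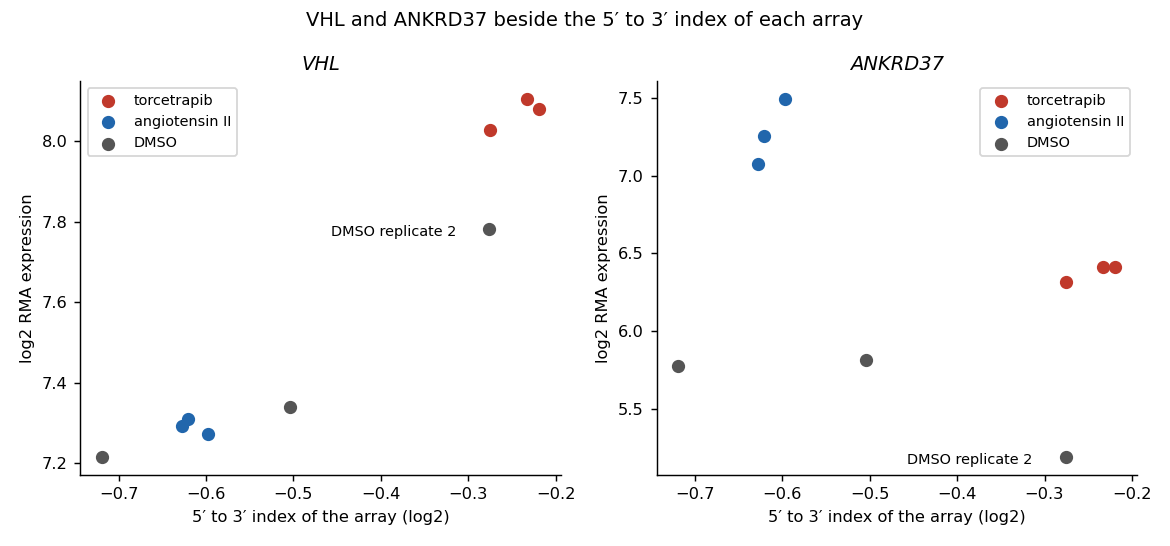
Log2 expression of VHL and ANKRD37 (vertical axes) against the 5′ to 3′ index of the array (horizontal axes, log2), 1 point per array. For VHL, DMSO replicate 2 at an index of -0.28 lies near the torcetrapib arrays, while for ANKRD37 it is the lowest of all arrays.

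The further probe sets of the members were set beside the same array. Of 12 such probe sets 8 lay above the dim limit. These 8 belong to EGLN1, VEGFA, BNIP3 and PFKFB4 alone, several to the same gene, so they are not independent. In all 8 DMSO replicate 2 was the highest of the 3 DMSO arrays, as it was in 26.7% of all genes by their brightest probe set, and in 4 of the 10 main probe sets. Torcetrapib minus DMSO was above 0 in 7 of these 8, in 3 of the 10 main probe sets and in 39.1% of all genes. The shares of all genes are by brightest probe set, so they are no like background for further probe sets. The second probe set of BNIP3 was an example of small size and lay at 9.81, 9.75 and 9.74 with torcetrapib and at 9.59, 9.84 and 9.71 with DMSO. The part of the index in these differences was not tested.

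**Figure D4:**
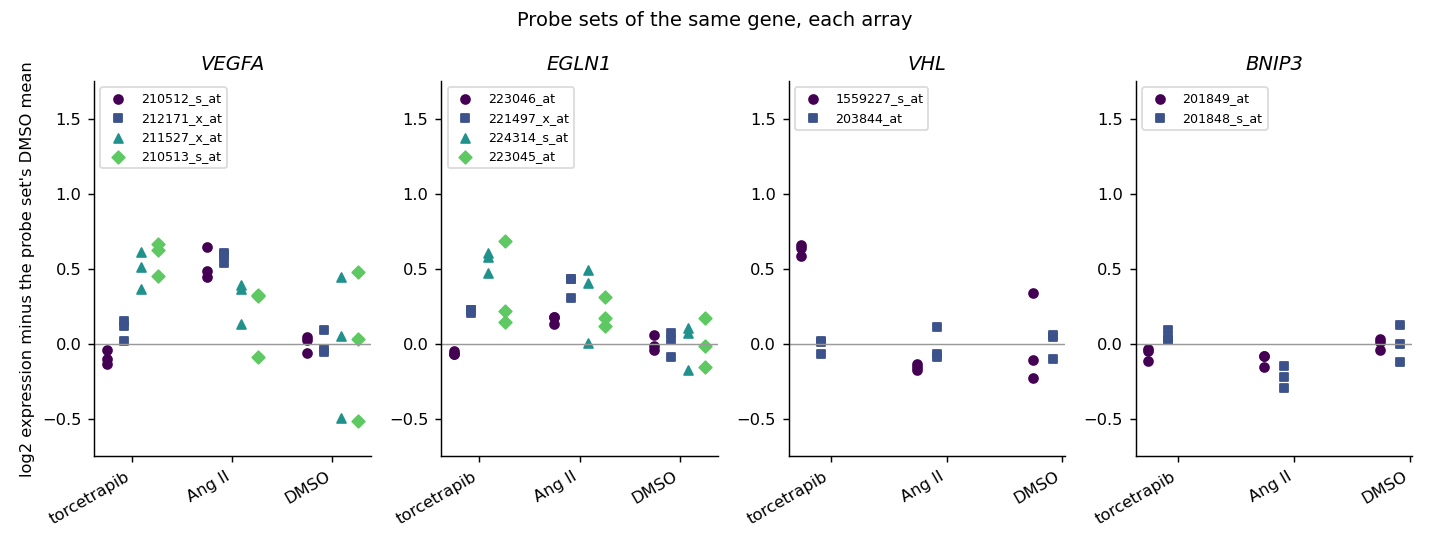
Log2 expression minus the DMSO mean of the probe set (vertical axes) for all probe sets of VEGFA, EGLN1, VHL and BNIP3 in each array, by treatment (Ang II stands for angiotensin II). The brightest probe sets of VEGFA and EGLN1 (circles) are near 0 with torcetrapib, while dimmer ones lie above 0, and those of VEGFA spread widely over the DMSO arrays.

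ADM encodes adrenomedullin, a peptide that widens blood vessels and was first found in an adrenal medulla tumour. It lay at 5.02, 5.09 and 5.22 with torcetrapib, at 5.65, 5.57 and 5.65 with angiotensin II and at 5.29, 5.23 and 5.55 with DMSO. The torcetrapib arrays were lowest and the angiotensin II arrays highest, with no overlap between any of the groups. The differences from DMSO were -0.24 ± 0.10 for torcetrapib and 0.27 ± 0.10 for angiotensin II, neither past the threshold. Torcetrapib minus angiotensin II was -0.51 ± 0.10, past the threshold except with the index in the model. BNIP3, which directs mitochondria to autophagy, ran from 11.60 to 11.67 with torcetrapib, from 11.55 to 11.63 with angiotensin II and from 11.67 to 11.74 with DMSO. Its differences from DMSO were -0.07 ± 0.04 for torcetrapib and -0.11 ± 0.04 for angiotensin II. With the mean of its probe sets BNIP3 was past the threshold for angiotensin II against DMSO (-0.16 ± 0.04) and for torcetrapib against angiotensin II (0.15 ± 0.04). PFKFB4, an enzyme that tunes glycolysis, ran from 6.96 to 7.21 with torcetrapib, from 7.27 to 7.34 with angiotensin II and from 7.13 to 7.24 with DMSO. Its differences from DMSO were -0.14 ± 0.09 for torcetrapib and 0.11 ± 0.09 for angiotensin II, and torcetrapib minus angiotensin II was -0.25 ± 0.09, not past the threshold. The last passed it after quantile normalisation (-0.30 ± 0.08) and without torcetrapib replicate 1 (-0.33 ± 0.09). In RefSeq BNIP3 overlaps PPP2R2D and PFKFB4 overlaps UCN2, and neither neighbour was past the threshold against DMSO, with differences of -0.08 and -0.08 for torcetrapib and 0.13 and 0.10 for angiotensin II.

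The members' differences were set beside other genes of the HIF pathway, listed from general knowledge in 4 groups that hold no member. Earlier results of these arrays were known when the lists were drawn up. Their counts are thus a description and no independent support. Of 80 such genes 77 were measured, and the other 3 were not analysed here. With angiotensin II 14 rose and 3 fell (22.1% of the 77, against 6.12% of all genes), with a median difference of 0.04 against 0.01 for all genes. With torcetrapib 0 of 77 passed the limma threshold, against 1.16% of all genes, while 17 passed an unadjusted p of 0.05, 7 of them higher and 10 lower, against 13.3% of all genes. Without DMSO replicate 2 the torcetrapib count was 5, all lower, and without angiotensin II replicate 2 it was 3. Over all genes the counts in these fits were 917 and 307, against 229 with all arrays. Between torcetrapib and angiotensin II 2 were higher and 15 lower (22.1%, against 11.3% of all genes), with medians of -0.09 and -0.04. That count was 11 without any 1 of the torcetrapib arrays and 6 with the index in the model. Over all genes the count was 1351 to 1486 without 1 torcetrapib array and 280 with the index, against 2232 in the main fit. Without the probe sets that can bind several transcripts only 55 of the 77 had a value. With angiotensin II against DMSO 7 of the 55 passed. In that setting fewer genes were tested, and 906 of all genes passed, against 1210 in the main fit.

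Among 16 genes of oxygen sensing and HIF subunits 1 rose and 1 fell with angiotensin II. CITED2, which competes with HIF for its coactivators, lay at 8.61, 8.75 and 8.73 with torcetrapib, at 10.49, 10.21 and 10.34 with angiotensin II and at 8.41, 8.39 and 8.49 with DMSO. It rose by 1.92 ± 0.07 with angiotensin II (limma adjusted p = 3.24e-11), its second probe set had 1.87, and the dimmest, at a mean level of 5.85, had 0.02. Averaged over the 3 probe sets the rise was 1.27 ± 0.09. With torcetrapib CITED2 had 0.27 ± 0.07, not past the threshold, and 0.61 and 0.01 on its second and its dimmest probe set, and torcetrapib minus angiotensin II was -1.65 ± 0.07. SIAH1, a ubiquitin ligase that acts on the EGLN hydroxylases, was the fall with angiotensin II (-0.19 ± 0.05, adjusted p = 0.0367 by limma, range over its alternatives 0.0157 to 0.334). That call ended in 14 of 18 settings, including the fits without any 1 angiotensin II or DMSO array and without torcetrapib replicate 1 or 2. The other SIAH1 probe sets, at mean levels of 7.74 and a dim 3.68, had -0.32 and -0.31 with angiotensin II. ELOC, which links VHL to its ligase, was higher with torcetrapib than with angiotensin II (0.13 ± 0.04, limma adjusted p = 0.0403, range 0.0253 to 0.612). This ELOC call ended in 10 settings, including those without angiotensin II replicate 1 or 2 or any 1 torcetrapib array. The second ELOC probe set, at a mean level of 8.86, had 0.22.

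Of 20 measured genes of glucose uptake and glycolysis 4 rose with angiotensin II and 0 fell. PFKFB3, the relative of PFKFB4 that favours glycolysis most, lay at 8.42, 8.40 and 8.32 with torcetrapib, at 9.40, 9.14 and 9.40 with angiotensin II and at 8.34, 8.18 and 8.34 with DMSO. It rose by 1.03 ± 0.08 (limma adjusted p = 2.75e-07), whereas PFKFB4 had 0.11 ± 0.09. The glucose transporters SLC2A3 and SLC2A1 rose by 0.56 ± 0.10 and 0.46 ± 0.08, and SLC2A3 had 0.22 with torcetrapib. The dimmer SLC2A3 probe sets, at mean levels of 8.78 and 7.76, differed from this. They had 0.36 and 0.16 with angiotensin II, 0.40 and 0.52 with torcetrapib, and 0.04 and 0.35 for torcetrapib against angiotensin II. For SLC2A1 the call ended without the probe sets that can bind several transcripts, where its dim probe set had 0.13. The other 16 genes, most of them enzymes of glycolysis, lay between -0.09 and 0.32.

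Of 19 secreted, vascular and matrix genes 5 rose with angiotensin II and 0 fell. IGFBP3, a binding protein of insulin-like growth factors, lay at 8.65, 8.79 and 8.58 with torcetrapib, at 9.08, 8.94 and 9.16 with angiotensin II and at 8.31, 8.24 and 8.46 with DMSO. It rose by 0.72 ± 0.08 (limma adjusted p = 1.67e-05), and its 0.34 with torcetrapib did not pass the threshold although no torcetrapib array overlapped DMSO. The second IGFBP3 probe set, at a mean level of 7.58, had 0.54 with torcetrapib and 0.60 with angiotensin II. The heme oxygenase gene HMOX1 rose by 0.50 ± 0.09, the chemokine receptor gene CXCR4 by 0.47 ± 0.06 and the collagen hydroxylase gene P4HA1 by 0.46 ± 0.08. CXCR4 had 0.13 with torcetrapib. Its dimmer probe sets, at 8.51 and 8.29, had 0.29 and 0.35 with angiotensin II and 0.21 and 0.29 with torcetrapib. The P4HA1 call ended with the mean of its probe sets and without the probe sets that can bind several transcripts, where its other, dim probe set had 0.01.

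Of 22 genes of mitochondria, pH, growth and chromatin 4 rose and 2 fell with angiotensin II. BHLHE40, a transcriptional repressor, rose by 0.90 ± 0.05 and JMJD6, a hydroxylase of the same Jumonji fold family as KDM3A, by 0.70 ± 0.07. HILPDA, a lipid droplet protein gene that HIF induces in many cells, went the other way. It lay at 8.46, 8.46 and 8.49 with torcetrapib, at 7.55, 7.22 and 7.66 with angiotensin II and at 8.34, 8.34 and 8.42 with DMSO. It fell by 0.89 ± 0.09 with angiotensin II (limma adjusted p = 1.02e-05), its second probe set had -0.67, and the call held in all 18 alternatives. VLDLR, a lipoprotein receptor gene, fell by 0.43 ± 0.09. Against angiotensin II, torcetrapib was higher for HILPDA by 0.99 ± 0.09 and lower for PFKFB3 (-0.93 ± 0.08), BHLHE40 (-0.88 ± 0.05) and JMJD6 (-0.65 ± 0.07). The second BHLHE40 probe set had 0.48 with torcetrapib and 0.52 with angiotensin II against DMSO, and -0.05 between torcetrapib and angiotensin II. Averaged over both, BHLHE40 had -0.46 ± 0.08 between torcetrapib and angiotensin II, still past the threshold. SLC2A1 (-0.45), P4HA1 (-0.44), ZNF395 (-0.38), IGFBP3 (-0.38), WSB1 (-0.38) and BHLHE41 (-0.36) were also lower with torcetrapib. Of these 6, ZNF395 lost its call without torcetrapib replicate 3 and WSB1 without angiotensin II replicate 3 or torcetrapib replicate 1 or 2 (limma adjusted p over their alternatives from 0.000626 to 0.990 and from 0.0021 to 0.909), and all but BHLHE41 lost it with the index in the model. With the mean of probe sets P4HA1, ZNF395, IGFBP3, WSB1 and BHLHE41 lost it, and without the probe sets that can bind several transcripts so did P4HA1, ZNF395, WSB1 and BHLHE41. The other 3 BHLHE41 probe sets had 0.04, 0.50 and -0.05.

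**Figure D5:**
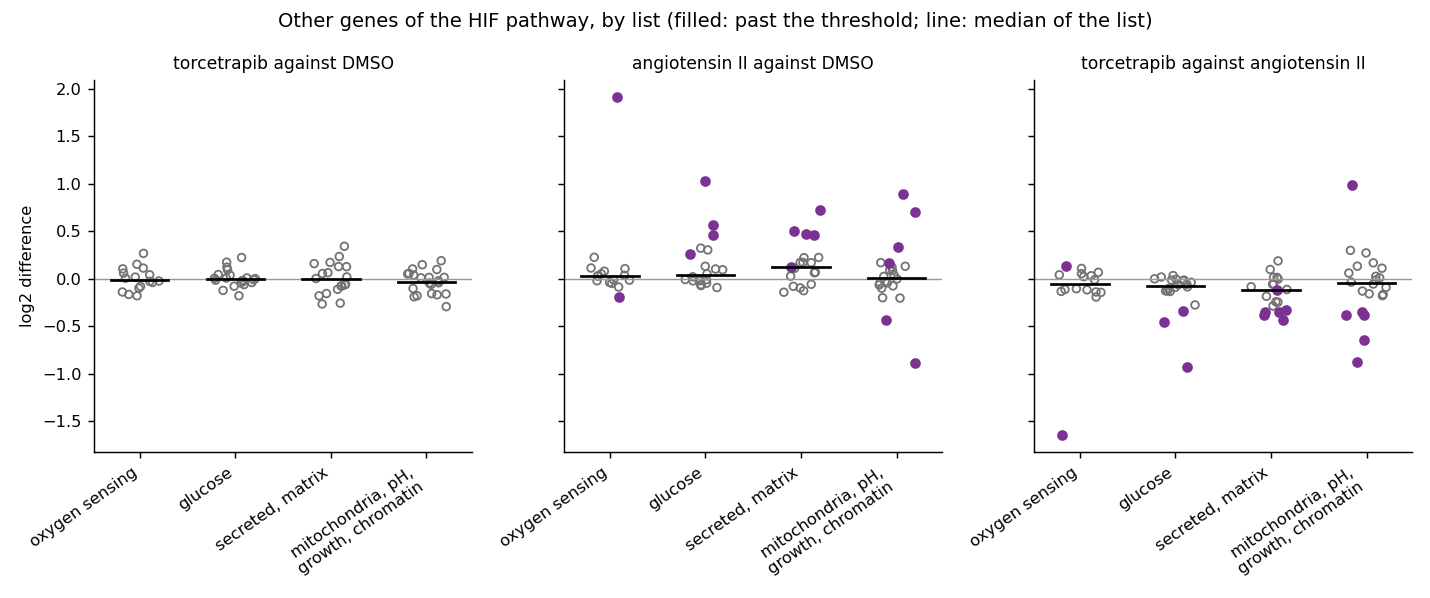
Log2 differences (vertical axis) of the 77 other HIF pathway genes in 3 comparisons, by list (horizontal axis), filled where past the threshold, with the median of each list as a line. No point is filled for torcetrapib against DMSO, and 17 are for angiotensin II against DMSO, with CITED2 at 1.92 and HILPDA at -0.89 at the ends.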

How the data were processed

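The authors deposited log2 expression values of 54675 probe sets on 9 arrays. The submitters' processing notes name RMA, with no software version or chip description file in the sources used here, and no further normalisation was applied. The labels give 3 arrays to each of 3 groups and name no batch. Control probe sets (62) and those with several symbols (1801) or none (11721) were left out. The remaining 41091 stand for 19775 genes, each by its brightest probe set over the 9 arrays, with symbols updated through the RefSeq gene table.

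A model of 3 group means was fitted over all genes with limma 3.58.1 in R 4.3.3, with variances moderated by an intensity trend and 6 residual degrees of freedom. P-values are two-sided and adjusted by Benjamini-Hochberg over all 19775 genes, with a threshold of 0.05. The procedure was tested on simulated data with independent noise for each gene and array, for angiotensin II against DMSO alone. Those data held no effect shared by the genes of an array, so the test does not bear on such effects. The members and the pathway lists were chosen with earlier results of these data known. Of the pathway genes past the threshold, at most 10 per direction and comparison were named, by size of difference. Likeness to ANKRD37 and VHL is the highest Pearson r, with 5 genes named for each. Alternatives were moderation without the trend or with robust fitting, removal of genes under the dim limit, centred arrays, quantile normalisation, probe sets averaged by gene, removal of probe sets ending in _x_at or _s_at, fits of only the 2 groups compared, the index as a covariate, and each array left out. Differences of further probe sets come from a fit of all single-symbol probe sets.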

Additional observations from a re-analysis of the deposited data

How the results depend on the processing

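No paired analysis was possible because the labels give the groups no shared replicate numbers. Leaving out 1 array at a time, the genes past the threshold numbered 83 to 917 for torcetrapib against DMSO (229 with all arrays), 956 to 1171 for angiotensin II against DMSO (1210) and 1351 to 2653 for torcetrapib against angiotensin II (2232). The pathway genes then numbered 0 to 5, 13 to 16 and 11 to 18, and the members 0 to 2, 3 to 4 and 6 to 7, in the same order. The highest torcetrapib counts, 917 and 5, came without DMSO replicate 2. For torcetrapib against DMSO the count over all genes was 50 without the intensity trend, 145 with only the 2 groups, 120 with centred arrays, 507 with quantile normalisation, 108 with the mean of probe sets, 136 without _x_at and _s_at probe sets and 76 with the index. The share of higher calls was 51.1%, against 65.8% with centred arrays and 33.7% with quantile normalisation. The pathway count of 0 became 2 with robust moderation, 3 without dim genes, 4 with quantile normalisation and 2 with the mean of probe sets. Over all genes robust moderation gave 271 and the fit without dim genes 287. The 2 members past the threshold became 0 without the trend, 0 with the mean of probe sets, and 1 without _x_at and _s_at probe sets, with only the 2 groups or with the index. For angiotensin II against DMSO, leaving out _x_at and _s_at probe sets gave 7 pathway genes of 55 with a value. The main fit gave 17 of 77. Members numbered 2 of 7 with a value, in place of 4 of 10. The count over all genes was then 906, in place of 1210, with fewer genes tested. For torcetrapib against angiotensin II the index gave 280 genes, 6 pathway genes and 2 members, the mean of probe sets gave 8 pathway genes, and leaving out _x_at and _s_at probe sets gave 8 of 55 pathway genes and 4 of 7 members. Over all genes the mean of probe sets gave 2308 and leaving out _x_at and _s_at probe sets 1582. Among differences past the threshold signs turned for VHL without _x_at and _s_at probe sets (-0.0148 against DMSO and -0.0008 against angiotensin II), and, against angiotensin II, for EGLN1 (0.0026), WSB1 (0.0739) and BHLHE41 (0.0355) with the mean of probe sets and for WSB1 (0.0341) without _x_at and _s_at probe sets. Among member differences not past it, signs turned with the mean of probe sets for VEGFA (0.2698) and EGLN1 (0.2644) with torcetrapib and for PFKFB4 (-0.0355) with angiotensin II against DMSO, for VHL with angiotensin II (0.0138) without DMSO replicate 2, and for EGLN3 in all 3 comparisons. Without _x_at and _s_at probe sets VHL and WSB1 were read from probe sets at mean levels of 3.10 and 4.02, both below the dim limit. Apart from this and the smaller number of genes tested in that setting, the cause was not tested. The members EGLN3, VEGFA and KDM3A and the pathway genes PFKFB3, BHLHE40, IGFBP3, SLC2A3 and VLDLR have no probe set of another kind, so that alternative gave no value for them. Of 13 member differences past the threshold 4 kept their side in every alternative run, as did 15 of 25 named pathway differences, and of 17 member differences not past it 3 gained a call in some alternative. The median of all genes moved by under 0.1 with either scaling.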
